A study of Drosophila melanogaster with 3 samples.

Results

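Peaks of the homeodomain protein Slouch (Slou) that lay at divergent promoters numbered 651 and made up 23.7% of the optimal list (95% Wilson interval 22.2 to 25.4%). At such promoters, genes on opposite strands start close to each other and are read away from each other. This held for the nearest starts at 641 of these peaks, and at 10 the transcripts overlapped. A peak was counted when its summit lay within 500 bp of at least 1 plus-strand and at least 1 minus-strand protein-coding transcription start site (TSS) of the Ensembl gene models, and such peaks are called 2-direction peaks here. The rule used position alone, and no score entered it. The rest of the list was 887 peaks near starts of 1 strand only (1-direction peaks) and 1205 away from promoters. Chromatin immunoprecipitation with an anti-GFP antibody, followed by sequencing (ChIP-seq), was done on whole Drosophila melanogaster embryos of mixed sex aged 0 to 24 h. They came from a transgenic line that stably expresses slou with a C-terminal eGFP, and no label used here names the sequence that drives the transgene. The 3 samples are biological replicates of this 1 group, and no control library is among them, so every comparison is between genomic features or between replicates. In whole embryos, a peak held in few cells and a weaker peak held in many cannot be told apart.

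Slou is an NK-class homeodomain protein known for specifying the identity of muscle founder cells and neurons, and many homeodomain proteins bind DNA with a TAAT core. Divergent gene pairs are common in the compact Drosophila genome, and many encode housekeeping proteins. Such promoters are known for the DNA replication-related element bound by Dref, for the overlapping BEAF-32 site and for the core promoter element bound by M1BP. Expression was not measured.

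The following stretches show the DNA between the 2 starts at the highest-scoring head-to-head members whose starts are 60 to 300 bp apart and have no annotated exon between them, together with the highest-scoring such member that holds each searched motif. There were 224 candidates, and members on 1 of the autosomal arms were not considered, so highest-scoring refers to the other arms. Sequences are the plus strand of the RefSeq Release 6 genome (dm6), 5′ to 3′, so each runs from the start of the first-named, minus-strand gene to the start of the second-named, plus-strand gene. Capitals mark matches on either strand to TATCGATA (the DNA replication-related element), CGATA (a BEAF-32 site, which is part of TATCGATA), GGTCACAC (the M1BP core), GAGAG (GAGA factor), CAGCTG (an E-box), TATAAA (the TATA box), and TAATTA and TAATTG (homeodomain cores). A match is a description of the letters, not a binding site.
Art3/mRpS10, chr3R:15229409-15229664: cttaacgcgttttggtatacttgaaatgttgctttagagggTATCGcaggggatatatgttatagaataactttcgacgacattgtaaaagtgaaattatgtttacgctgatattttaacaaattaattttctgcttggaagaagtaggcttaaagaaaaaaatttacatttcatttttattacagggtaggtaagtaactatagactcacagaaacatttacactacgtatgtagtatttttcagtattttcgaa
Chro/Ssl1, chr3L:22878985-22879088: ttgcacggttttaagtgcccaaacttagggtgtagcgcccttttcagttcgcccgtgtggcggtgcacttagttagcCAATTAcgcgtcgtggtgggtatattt
Atat/Shc, chr3L:9426759-9427009: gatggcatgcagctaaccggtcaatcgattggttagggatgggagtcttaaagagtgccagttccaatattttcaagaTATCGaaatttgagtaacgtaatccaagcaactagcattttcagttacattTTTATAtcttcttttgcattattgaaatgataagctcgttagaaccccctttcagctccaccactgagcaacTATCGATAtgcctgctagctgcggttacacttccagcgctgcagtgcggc
CG13390/CG17294, chr2L:8376798-8377034: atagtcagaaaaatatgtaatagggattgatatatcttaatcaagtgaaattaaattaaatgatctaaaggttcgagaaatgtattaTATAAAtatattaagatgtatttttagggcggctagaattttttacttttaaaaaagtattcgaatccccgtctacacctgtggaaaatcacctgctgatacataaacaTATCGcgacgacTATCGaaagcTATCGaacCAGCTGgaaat
Tcs5/CHMP2B, chr3L:5139396-5139618: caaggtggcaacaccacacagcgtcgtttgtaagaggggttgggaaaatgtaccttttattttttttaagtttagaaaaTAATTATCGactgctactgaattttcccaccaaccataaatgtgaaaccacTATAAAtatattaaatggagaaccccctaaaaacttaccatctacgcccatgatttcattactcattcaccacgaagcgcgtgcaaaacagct
Lon/PIG-F, chr3L:19612200-19612454: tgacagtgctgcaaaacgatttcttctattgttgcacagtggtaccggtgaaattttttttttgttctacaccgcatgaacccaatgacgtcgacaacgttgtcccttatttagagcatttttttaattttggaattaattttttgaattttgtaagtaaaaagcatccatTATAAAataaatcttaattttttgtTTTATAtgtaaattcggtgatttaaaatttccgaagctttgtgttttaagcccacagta
Reps/l(2)gd1, chr2L:11106646-11106942: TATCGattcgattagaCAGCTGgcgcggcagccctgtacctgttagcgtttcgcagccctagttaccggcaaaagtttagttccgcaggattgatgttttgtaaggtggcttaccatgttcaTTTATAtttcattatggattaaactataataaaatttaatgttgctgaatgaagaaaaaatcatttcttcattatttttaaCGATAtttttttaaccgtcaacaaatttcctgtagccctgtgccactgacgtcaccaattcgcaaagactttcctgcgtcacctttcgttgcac
Mkk4/SLIRP2, chr3R:8650797-8651083: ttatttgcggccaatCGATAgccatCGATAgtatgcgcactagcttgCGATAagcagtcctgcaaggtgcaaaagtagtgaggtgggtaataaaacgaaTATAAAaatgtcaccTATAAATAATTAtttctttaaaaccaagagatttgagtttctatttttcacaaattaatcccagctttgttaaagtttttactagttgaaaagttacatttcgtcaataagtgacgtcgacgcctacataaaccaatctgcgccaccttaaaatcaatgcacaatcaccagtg
alphaCOP/CG13919, chr3L:1645200-1645466: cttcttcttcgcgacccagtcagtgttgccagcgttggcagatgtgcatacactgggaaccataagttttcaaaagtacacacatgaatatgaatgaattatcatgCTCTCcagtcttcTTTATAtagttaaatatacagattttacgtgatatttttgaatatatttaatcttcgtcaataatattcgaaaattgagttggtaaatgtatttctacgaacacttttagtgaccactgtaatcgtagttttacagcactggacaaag
GatA/P5cr, chr3R:19028858-19028930: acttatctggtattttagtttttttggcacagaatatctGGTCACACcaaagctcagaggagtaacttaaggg

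The summits fell well inside most of these stretches. At Art3/mRpS10, the summit lay 117 bp from the start of Art3, a protein arginine methyltransferase gene, and 140 bp from that of mRpS10, of the mitochondrial ribosome. At Atat/Shc (an alpha-tubulin acetyltransferase and an adaptor of receptor tyrosine kinases), it lay 124 and 128 bp from the starts, while the only TATCGATA match stood near the Shc end. At Mkk4/SLIRP2 it lay 144 bp from each start, close to a run that joins TATAAA and TAATTA. Chro/Ssl1 and GatA/P5cr differed: the summit lay 93 bp inside the transcribed side of Chro in the first, and outside the printed stretch in the second. Of the homeodomain cores, TAATTG was in the stretch of Chro/Ssl1 and TAATTA in those of Tcs5/CHMP2B and Mkk4/SLIRP2, and the other 7 stretches held neither.

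The authors' score of the 651 members, on a scale no source used here states, ranged from 92.2 to 962 with a median of 147 (quartiles 116 and 213). The 1-direction peaks had a median of 141 and reached 1515. The members were not spread evenly over the list. They made up 29.4% of the peaks ranked 1 to 686, 25.1% of the next 686, 22.6% of those ranked 1373 to 2057 and 17.8% of the last 686. Their median rank was 1172. Most members (569, or 87.4%) were 390 bp wide.

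The member with the highest score was Art3/mRpS10, with a score of 962 and rank 9 in the optimal list. Its best overlapping peak ranked 7, 12 and 9 in the lists of replicates 1, 2 and 3. Chro/Ssl1 followed with a score of 950 and ranks of 15, 6 and 11. Chro encodes Chromator, a chromodomain protein of interbands and the spindle, and Ssl1 encodes a TFIIH subunit. CG5611/Mtl had a score of 940 and ranks of 14, 9 and 10. All 3 pairs stood among the 15 highest of 30000 peaks in every replicate. Atat/Shc had a score of 803 and ranks of 30, 13 and 16. mRpS23/CenG1A, a mitochondrial ribosomal protein gene and an Arf GTPase-activating protein gene, had a score of 787 and ranks of 33, 14 and 13. These 2 pairs ranked lower in replicate 1 than in the other two.

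The other 15 of the 20 highest-scoring members had scores of 511 to 759. They were CG13390/CG17294, Pex11ab/CG8320, Fbw5/CG9147, Tcs5/CHMP2B, CG5757/CG5098, mRpL23/CG9004, Pdrg1/Pal1, CG8372/CG8360, Lon/PIG-F, tank/CG12194, Reps/l(2)gd1, Mkk4/SLIRP2, CG13018/CG13016, Bdp1/CG6565 and CG8892/CG34126. They include genes of the mitochondrial protease Lon, the ESCRT-III subunit CHMP2B, the JNK-pathway kinase Mkk4, the GPI-anchor synthesis protein PIG-F and the TFIIIB subunit Bdp1. Their highest replicate ranks were 19 for CG13390/CG17294 in replicate 1 and 17 in replicate 3, and 19 for Tcs5/CHMP2B in replicate 2. tank/CG12194 had the lowest rank of the 20 in any replicate, 79 in replicate 1 against 32 and 35 in replicates 2 and 3.

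The 651 members had 622 distinct nearest gene pairs and 1287 genes within 500 bp. Genes known only by a CG number made up 29.3% of these genes and 43.7% of all 13968 protein-coding genes. At 29 pairs there were 2 members, with a median distance of 202 bp between their summits. At 27 of these pairs both members took their replicate ranks from the same replicate peaks, so they are not separate observations. At RpL32/CG7943, the summit nearer RpL32 had a score of 373 and the other one 139. At Wdr37/koko the scores were 356 and 135. Of all 651 members, 35 (5.38%) had 3 or more genes within 500 bp. The most, 10, came from the pre-mod(mdg4) models of a trans-spliced locus, which are not a conventional pair of promoters.

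Near starts on both strands, a pooled-list peak was in the optimal list more often than elsewhere. The pooled list holds 30000 peaks, of which 9.14% are in the optimal list. Of its 2-direction peaks, 38.8% (651 of 1680) are in it, against 16.5% of 1-direction peaks and 5.26% of those away from promoters. The 26843 pooled-list peaks without overlap to an optimal one are called background peaks. Of these, 3.43% (3.22 to 3.66%) lay at 2-direction promoters and 16.2% at 1-direction promoters. The replicate lists, ranked without the optimal list, gave the same order. The top of each is taken to hold as many peaks as the optimal list, which is 9.14% of a replicate list by construction. Of the 2-direction peaks, 34.5%, 47.4% and 38.4% were in the top of replicates 1, 2 and 3. Of the 1-direction peaks, 15.5%, 20% and 16.7% were. The mean difference was 22.7 ± 4.28 percentage points (SD, n = 3), higher in 3 of 3 replicates, with an exact two-sided sign-flip permutation p of 0.25. That is the smallest p that 3 replicates can give, so no test over replicates here can reach 0.05.

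**Figure D1:**
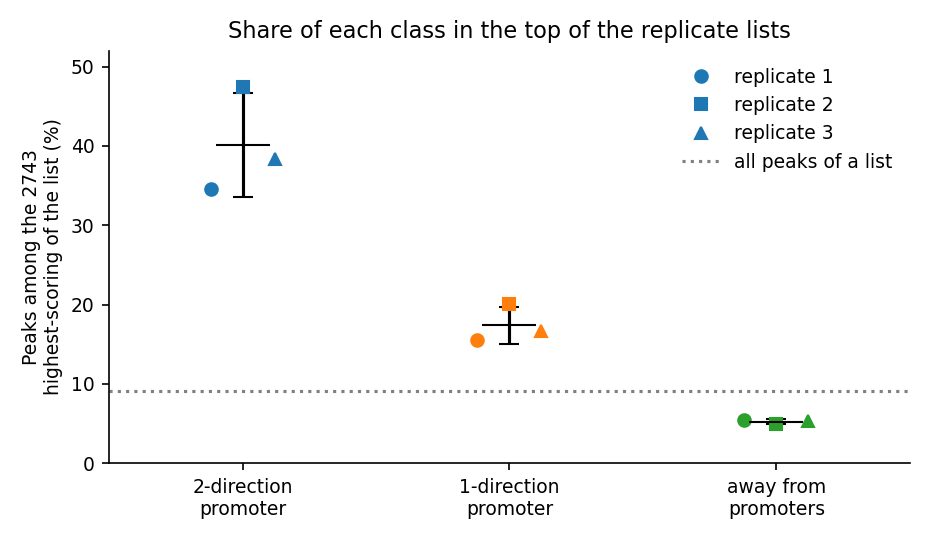
Share of the peaks of each class that were in the top of a replicate list (y axis, %), by class (x axis); symbols are replicates, bars the mean and SD over 3 replicates, and the dotted line all peaks of a list. The 2-direction peaks sit at 34.5 to 47.4% and do not overlap the 1-direction peaks, at 15.5 to 20%.

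Read the other way, 2-direction summits were 23.1% ± 0.995 (SD, n = 3) of the top peaks of a replicate and 3.55% ± 0.781 of the remaining ones. The difference was 19.6 ± 1.78 points (exact two-sided sign-flip permutation p = 0.25, 3 of 3 replicates in the same direction). The 3 top shares were 22.2%, 24.2% and 22.9%. For 1-direction summits the shares were 32.6% ± 0.544 and 15.8% ± 2.60. The optimal list derives from these replicate lists, so the lists are not independent of each other.

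Once a peak was in the optimal list, the difference between members and 1-direction peaks in how often the replicates held them was within the spread between replicates. An optimal peak counted as matched when a top peak of a replicate overlapped it by at least 1 bp. Of the members, 81.1%, 90.02% and 87.3% were matched in replicates 1, 2 and 3, and of the 1-direction peaks 81.8%, 85.2% and 85.3%. The difference was 1.98 ± 2.76 points (exact two-sided sign-flip permutation p = 0.5, higher in 2 of 3 replicates). The median rank of the best overlapping peak was 1268, 973 and 1204 for the members and 1301, 1254.5 and 1262.5 for the 1-direction peaks. The members' median was lower, that is, better, by 33, 281.5 and 58.5 places, and the mean difference was -124 ± 137 (exact permutation p = 0.25). Replicate 2 gave most of that difference, and without it the mean was -45.8. Among the optimal peaks above the median score it was -8.5 ± 122.

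Of the 651 members, 438 (67.3%) were matched in all 3 replicates, 157 in 2, 54 in 1 and 2 in none. Of the members ranked 1 to 686, 200 of 202 were matched in all 3. The exceptions were MED30/Rev1 and CG13933/PolD2. MED30 encodes a Mediator subunit and Rev1 a translesion DNA polymerase. MED30/Rev1 (score 313) ranked 240 and 193 in replicates 2 and 3 and overlapped no peak of replicate 1. CG13933/PolD2 (score 225) ranked 470 in replicate 2 and 25926 in replicate 3, and it too had no overlapping peak in replicate 1. Of the members ranked 2058 and below, 20 of 122 members were matched in all 3. In total, 14 members overlapped no peak of 1 replicate list, which was replicate 1 for 4 and replicate 2 for 10 of them. Spearman's rho of the members' ranks across peaks was 0.697 between replicates 1 and 2, 0.701 between 1 and 3 and 0.772 between 2 and 3, given as a description.

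Most members had their summit between the starts. The spacing, the plus-strand start minus the minus-strand start for the start nearest to the summit on each strand, had a median of 290 bp (quartiles 220.5 and 383.5). It ran from -234 to 737 bp. The median was close to the 295 bp of all 2412 head-to-head gene pairs spaced up to 1000 bp. At 641 members the starts were head to head, and at 10 the transcripts overlapped. The summit lay between both starts at 549 members (84.3%), a share that the 500-bp rule partly fixes. Over all members it lay a median of 93 bp from the nearer start and 206 bp from the farther one. The strands were nearly even: the minus-strand start was nearer at 317 members and the plus-strand start at 332, with 2 ties. The 1-direction summits were also mostly upstream (90.2%) and lay a median of 169 bp from their start. The members' 93 bp is the smaller of 2 distances and so is lower by construction.

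The place of the summit changed with the spacing, and the 500-bp rule fixes part of this. Above 500 bp a member's summit must lie between the starts. The smaller the spacing, the more of the allowed stretch lies outside them. At a spacing of up to 100 bp only 16 of 63 summits lay between the starts. Above 100 and up to 200 bp 38 of 63 did, and above 200 and up to 300 bp 199 of 212. In that class 131 of 212 summits (61.8%) lay within 50 bp of the midpoint, and the median distances to the starts were 90.5 and 170 bp. Above 300 and up to 500 bp 32.9% of 246 summits lay that close to the midpoint, with medians of 112 and 267.5 bp. Above 500 bp 21.1% of 57 did, with medians of 175 and 396 bp. The smallest spacings were at dpa/didum (2 bp; an Mcm helicase subunit and a myosin V), CG7246/HP1b (6 bp) and SerRS/CG17260 (8 bp). The largest were at RpS5a/Chchd2 (737 bp), Fdh/CG4596 (657 bp) and dpr14/spidey (645 bp).

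**Figure D2:**
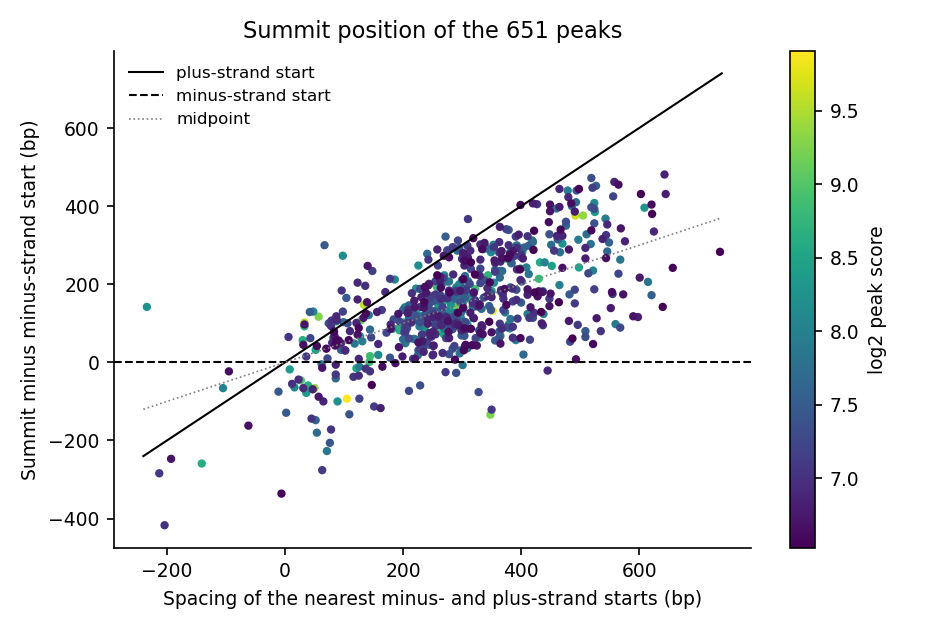
Position of each of the 651 summits relative to the minus-strand start (y axis, bp) against the spacing of both starts (x axis, bp; below 0 the transcripts overlap), coloured by log2 peak score; the dashed line is the minus-strand start, the solid line the plus-strand start and the dotted line their midpoint. Most points (549 of 651) lie between the solid and dashed lines, and those outside them lie mostly at small spacings, where the rule leaves more room outside.

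The 500-bp limit parted peaks with close values. Just inside it were Vha13/Nup58, with its farther start 498 bp away, CG2926/PolZ2 (485 bp) and tank/CG12194 (482 bp), with scores of 92.2, 102 and 606. Just outside it were CCT8/CG30349 (502 bp), CG13605/Root (505 bp) and Spn27A/CG34310 (506 bp), with scores of 119, 160 and 136.

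Counted from the gene models, 606 of 2412 head-to-head gene pairs with a spacing of up to 1000 bp had an optimal summit within 500 bp of both starts, or 25.1% (23.4 to 26.9%). The share in the top peaks of replicates 1, 2 and 3 was 23.6%, 25.5% and 24.4%. Over the gene models as a whole, 28.4% of the 5052 genes with a head-to-head partner within 1000 bp had an optimal summit within 500 bp of a start. Of the 8827 genes without an opposite-strand start that close, 7.61% had one, and of all genes 15.1%. In the replicate lists the difference was 20.2 ± 1.18 points (exact two-sided sign-flip permutation p = 0.25, 3 of 3 replicates in the same direction). A summit in a shared gap counts for both genes, so the density was also taken. Optimal summits numbered 220 per Mb of promoter window at head-to-head pairs and 65.8 per Mb at 1-direction genes. Background summits numbered 400.5 and 322.5 per Mb.

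The share of occupied pairs was highest at spacings above 200 and up to 400 bp. It was 21.7% (88 of 406) up to 100 bp and 19.7% (65 of 330) above 100 and up to 200 bp. It then stood at 39.4% (198 of 503; 35.2 to 43.7%) above 200 and up to 300 bp, and at 34.6% (209 of 604) from there to 500 bp. Above 500 bp it was 8.08% (46 of 569), but there the stretch within 500 bp of both starts is only 306 bp long on average, against 746 bp above 200 and up to 300 bp. With a summit near either start allowed, that last share was 19.9%. In 50-bp classes, the share went from 18.0% (25 of 139) in the class ending at 200 bp to 39.1% (86 of 220) in the class ending at 250 bp. This step was chosen after the values were seen. Above 200 and up to 300 bp the share in replicates 1, 2 and 3 was 38.4%, 40.8% and 40.6%, and in the 100 bp below that it was 18.2%, 17.9% and 18.5%. The difference was 21.7 ± 1.38 points (exact two-sided sign-flip permutation p = 0.25, 3 of 3 replicates in the same direction). With the same window for every pair, 250 bp to each side of the midpoint, it was 21.9 ± 1.17 points.

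**Figure D3:**
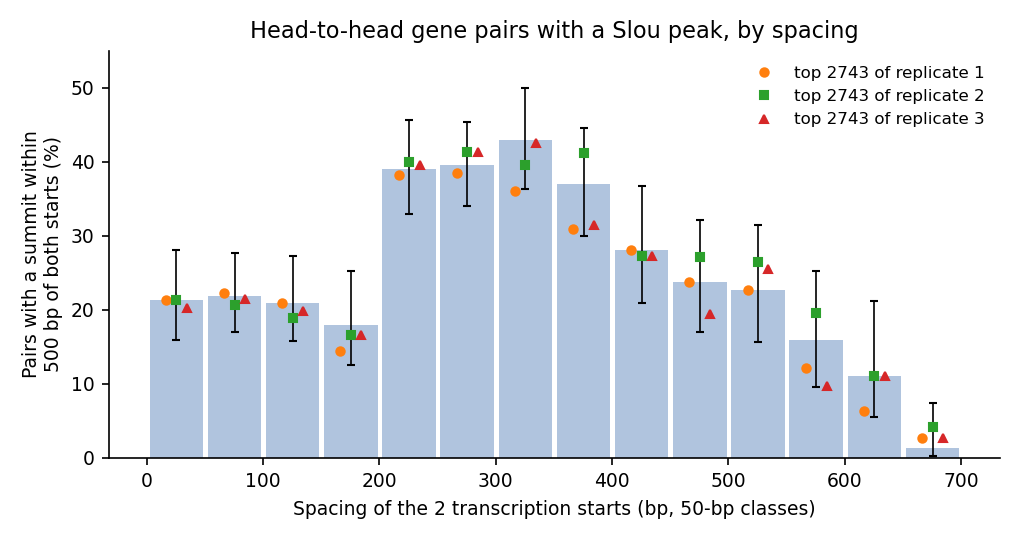
Share of head-to-head gene pairs with a summit within 500 bp of both starts (y axis, %) by the spacing of the starts in 50-bp classes (x axis, up to 700 bp); bars are the optimal list with 95% Wilson intervals, and symbols the top peaks of each replicate. The bars stand at 18.0 to 21.9% up to 200 bp and at 37.0 to 43.0% from there to 400 bp.

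The X chromosome held fewer members. They were 64 of 498 optimal peaks on X (12.9%; 10.2 to 16.1%) and 24.2 to 31.3% of those on each of 2L, 2R, 3L and 3R. A head-to-head partner was present for 35.7% of X genes and 36.4% of genes on the other 4 arms. The spacing of the pairs was not compared between arms, and the cause of the lower X share was not tested. Of the X pairs 63 of 381 (16.5%) were occupied, and of the pairs on the other 4 arms 543 of 2020 (26.9%). In replicates 1, 2 and 3 the X share was 17.6%, 16.8% and 15.5%, and that of the 4 arms was 24.9%, 27.2% and 26.2%. The groups did not overlap, and the difference was -9.48 ± 1.88 points (exact two-sided sign-flip permutation p = 0.25). Background peaks at 2-direction promoters made up 4.11% of background peaks on X, inside the 2.50 to 4.17% range of the 4 arms. On chromosome 4 none of 11 pairs was occupied in the optimal list, which allows a share of up to 25.9% (upper Wilson bound), and the replicate shares there were 0%, 18.2% and 0%.

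**Figure D4:**
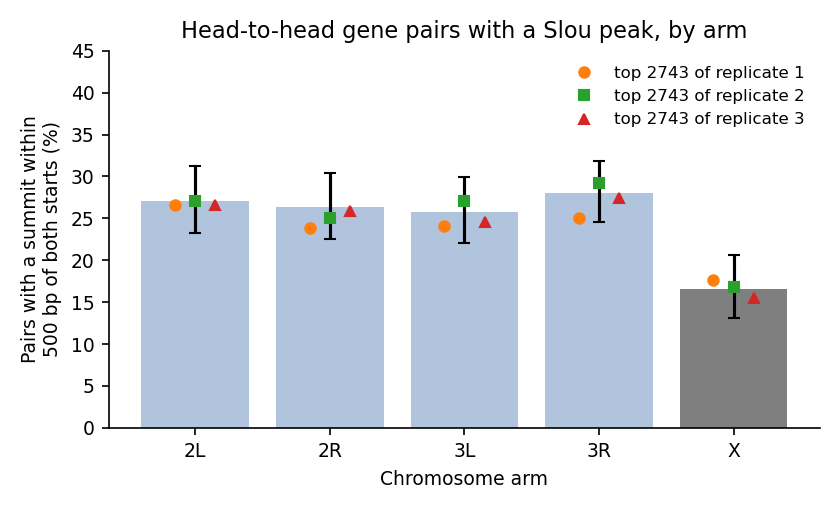
Share of head-to-head gene pairs with a summit within 500 bp of both starts (y axis, %) by chromosome arm (x axis); bars are the optimal list with 95% Wilson intervals, and symbols the top peaks of each replicate. On X all 3 replicates (15.5 to 17.6%) lie below those of the 4 other arms drawn (23.8 to 29.2%), and chromosome 4 is not drawn.

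Gene groups differed in how many of their head-to-head genes had a member. Over all genes the share was 9.21%, and over the 5052 head-to-head genes, the fitting background, it was 25.4%. Cytosolic ribosomal protein genes had 31 of 56 (55.4%), mitochondrial ribosomal protein genes 22 of 58 (37.9%) and vacuolar ATPase genes, whose product acidifies organelles, 10 of 14 (71.4%). Without a head-to-head partner, 23 of 37 cytosolic ribosomal protein genes had an optimal summit within 500 bp of a start, against 678 of all 8916 such genes, so their high count was not limited to divergent promoters. Oxidative phosphorylation genes had 14 of 45 (31.1%), proteasome genes 8 of 26 (30.8%), aminoacyl-tRNA synthetase genes 7 of 23 (30.4%) and translation initiation genes 6 of 21 (28.6%). Mediator and general transcription genes had 13 of 36 (36.1%), replication and repair genes 8 of 31 (25.8%) and RNA polymerase subunit genes 4 of 20. Of genes for promoter and insulator factors, 5 of 9 had one: Chro, Cp190, pzg, M1BP and Dref. The muscle identity genes, the class in which Slou is known to act, had 3 head-to-head genes of 23 and a member at none of them. Of the other 20, 3 had an optimal summit within 500 bp of a start, beside 678 of all 8916 genes without a head-to-head partner. Both counts of muscle identity genes are too small to set apart from their backgrounds. The 14 neural factor genes had no head-to-head gene, and slou had neither a head-to-head partner nor a 2-direction peak. The lists were chosen with earlier results known and were not tested.

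**Figure D5:**
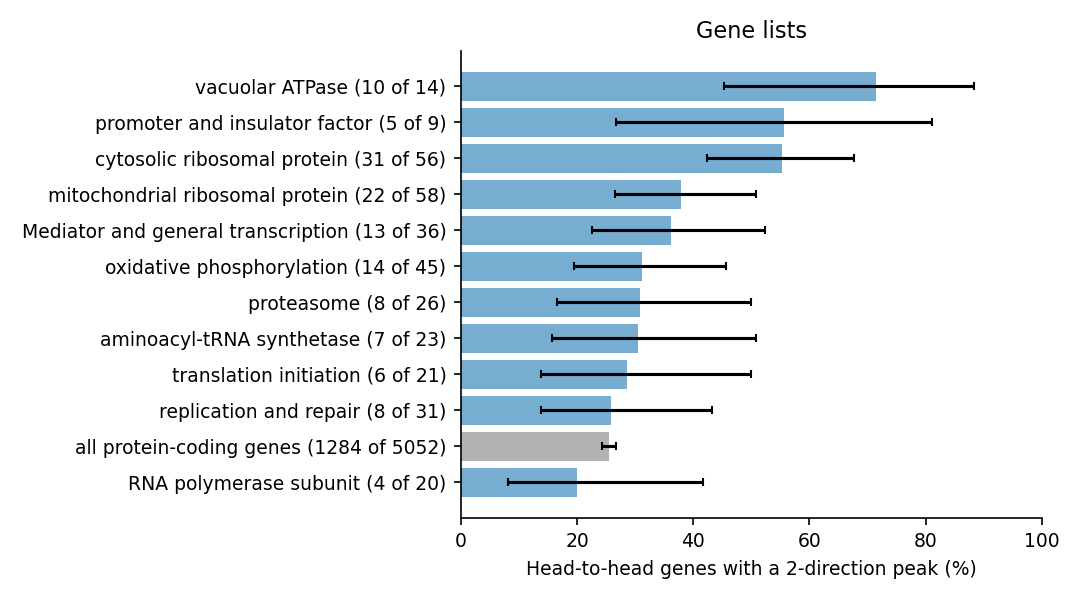
Share of the head-to-head genes of each list that had a 2-direction peak within 500 bp of a start (x axis, %), by list (y axis, with counts); error bars are 95% Wilson intervals, and the grey bar is all head-to-head genes. Lists with fewer than 9 head-to-head genes are not drawn, and the intervals of vacuolar ATPase, cytosolic and mitochondrial ribosomal protein genes and promoter and insulator factors lie above the grey bar's 25.4%.

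At ribosomal protein pairs the summit stood near the ribosomal protein gene. The 33 members at such pairs lay a median of 66 bp from that start (quartiles 35 and 104) and 211 bp from the partner's (124 and 317), and were nearer to the ribosomal protein gene at 28. RpS27/Nup37 had the highest score, 463, with ranks of 121, 58 and 94 in replicates 1, 2 and 3. Its summit lay 16 bp from the start of RpS27 and 128 bp from that of the nucleoporin gene Nup37. Ripalpha/RpL7 had a score of 398 and ranks of 63, 192 and 139. RpL32/CG7943 (ranks 230, 115 and 151) and RpL34b/CG8132 (ranks 284, 93 and 167) were next. Of these 4, Ripalpha/RpL7 ranked highest in replicate 1 and lowest in replicate 2. Genes of the mitochondrial ribosome gave no such lean: the summit was nearer to them at 9 of 21.

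Among the other lists, the highest vacuolar ATPase member was Vha68-1/mTor, the catalytic subunit gene beside that of the growth-control kinase, with a score of 231 and ranks of 995, 340 and 541. Vha100-2/Vti1b (score 179) and Vha55/Snx3 (score 161) followed. The synthetase genes SerRS (score 326; ranks 246, 232 and 202), GluProRS (321) and IleRS (311) stood close together. The highest respiratory chain genes were ND-ASHI (255) and ND-MWFE (245), subunits of complex I. The highest proteasome gene was Rpn5 (173; ranks 400, 659 and 2219), and MED27 led the Mediator genes (333; ranks 287, 134 and 319). The translation initiation list was drawn up by gene symbol, not by function. In it eIF4EHP came first (462; ranks 74, 89 and 82) and eIF1 next (298). Polr3E (253) and Polr2B (247) led the polymerase subunits, and mus301 (198) and Mcm2 (157) followed PolD2 among the replication and repair genes. Cp190 had a score of 296 and ranks of 313, 247 and 271, and M1BP one of 124 and ranks of 3183, 1347 and 996. Dref shared its member (106; ranks 769, 3900 and 2746) with RpL13, and Dref and M1BP were far lower in the list than Chro. RpL28/eIF1, mRpL39/Prosbeta2, COX8/VhaM9.7-b and Dref/RpL13 had both partners in a list.

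The DNA within 50 bp of the members' summits was 67.8% ± 8.99 A/T (SD over 651 windows), against 65.3% ± 9.28 at 1-direction summits. At background peaks of 2-direction promoters it was 63.1%, and around all protein-coding starts 56.3%. Around the midpoints of head-to-head pairs without an optimal summit it was 65.7% ± 10.4, and around those with one it was higher. Most members' summits lay between the starts, so these midpoints are a closer background than windows centred on starts. Optimal peaks away from promoters, at 67.2% ± 7.90, were close to the members. Among the members it was 69.0% at the 217 with the highest scores and 66.0% at the 217 with the lowest.

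The homeodomain core TAATTA was within 50 bp of 12.3% (9.99 to 15.0%) of members' summits, on either strand. It was near 10.03% of 1-direction summits, 10.6% of optimal summits away from promoters, 9.88% of background 2-direction summits and 2.99% of all starts. The members' interval holds the first 2 of these values and starts just above the third. Of the midpoints of head-to-head pairs, TAATTA was near 10.4% without an optimal summit, a value that interval also holds, and 14.9% with one. Within 250 bp to each side, TAATTA was present at 41.9% (38.2 to 45.8%) of members, 33.0% of 1-direction peaks, 31.0% of those away from promoters and 37.0% (34.0 to 40.2%) of background 2-direction peaks. In that wider window the members' interval lies above the values of the other 3 classes, though it overlaps the interval of the background 2-direction peaks. TAATTG was near 10.8% of members' summits, 11.8% of 1-direction summits, 11.3% of those away from promoters, 9.99% of background 2-direction summits and 5.67% of starts. The TATA box letters TATAAA were near 25.04% (21.9 to 28.5%) of members' summits, 20.2% of 1-direction, 17.4% of background 2-direction summits and 15.5% of starts. They were near 23.2% of optimal summits away from promoters, which the members' interval holds, and 21.7% of the midpoints of head-to-head pairs without an optimal summit. These words are A/T-rich, and the part of the windows' A/T share in the differences was not tested.

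The elements known from divergent promoters were not more frequent at members' summits than at other 2-direction peaks. TATCGATA was within 50 bp of 5.53% (4.02 to 7.56%) of members' summits and 7.38% of background 2-direction summits. It was near 3.95% of 1-direction summits and 4.48% of all starts. CGATA was near 26.9%, 30.5%, 21.4% and 23.6% of these windows in the same order. GGTCACAC was near 1.23% (0.624 to 2.41%) of members' summits, 4.45% of background 2-direction summits, 0.902% of 1-direction summits and 4.68% of all starts. GAGAG was near 5.53% of members' summits, 7.82% of background 2-direction summits, 8.68% of 1-direction summits and 12.7% of all starts. CAGCTG was near 5.38%, 6.62%, 3.83% and 8.77% of these windows in the same order. In a wider window of 250 bp to each side, TATCGATA was present at 23.3% of members, 21.8% of background 2-direction peaks and 9.58% of 1-direction peaks. GGTCACAC was present there at 16.6%, 19.9% and 6.31%. Where a member had them, they lay a median of 93.5 bp and 134.5 bp from the summit. Only matches within 250 bp were counted, which limits these medians, and they were not set beside those of other peaks.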

How the data were processed

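Slou-eGFP ChIP-seq peaks of 3 replicates were analysed. Per the deposited README files, the authors called peaks in each replicate and on the pooled replicates, each with 30000 peaks, and derived an optimal list of 2743. Aligner, peak caller and versions: not given in the sources used here. Peaks carry the authors' deposited score, which was used for ranks and descriptions inside a list and never between lists. The top of a replicate list is its 2743 highest-scoring peaks. The files used hold no read counts, so depth is unknown. Only the dm6 lists were used.

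Summits (interval start plus the deposited offset, counted from 1) were compared with Ensembl release 115 (BDGP 6.54) protein-coding transcript starts. Sequence came from the RefSeq Release 6 genome, whose arm lengths exceed all peak ends. Head-to-head pairs are mutually nearest opposite-strand starts 1 to 1000 bp apart. Alternatives included tops of 1371 and 5486 peaks, other distances, other overlaps and RefSeq starts. Intervals are 95% Wilson intervals over peaks, pairs or genes. They cover counting error only, and neighbouring peaks are not independent. Tests are exact two-sided sign-flip permutation tests over 3 replicates, and concern these samples only. Their p is 0.25 whenever all 3 differences have the same sign, whatever their spread. Python 3.11.15, pandas 2.3.3, numpy 2.4.6, scipy 1.17.1 and matplotlib 3.10.9 were used, and class and rank assignment was tested on simulated data.

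Pairs named are the 20 highest-scoring members, up to 4 genes per list by highest peak, the 3 smallest and 3 largest spacings, the 3 peaks on each side of the limit, and slou. Sequences printed followed the rule given with them, to which the condition on exons was added later. Pairs named for 2 summits or missing replicate peaks were chosen after their values were seen. The members and lists were chosen with earlier results of these data known.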

Additional observations from a re-analysis of the deposited data

How the results depend on the processing

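Samples could not be paired between groups because there is only 1 group, and each test used differences taken within a replicate. The share of optimal peaks at 2-direction promoters (23.7%) was 15.1% with starts within 250 bp, 28.4% within 1000 bp and 27.3% among the optimal peaks above the median score. Keeping the peaks matched in both of the other replicates gave 25.1 to 25.9%. The difference in replicate support between members and 1-direction peaks (1.98 points) changed sign among the optimal peaks above the median score (-0.462) and with longer tops of the replicate lists (-0.154), and the cause was not tested. Occupied pairs (25.1%) were 30.4% at spacings of at most 500 bp, 15.0% with only the optimal peaks above the median score and 28.3% with a summit near either start. They were 18.2 to 19.7% when a replicate was left out, where fewer peaks remain by construction. RefSeq starts, nearly all at the same positions as the Ensembl ones, gave the same values and so test little. The top-of-list difference, the spacing median, the A/T difference and the step at a spacing of 200 bp kept their direction under each alternative run, and those for the step were chosen after seeing the data. With a window of 100 bp to each side, the differences in the shares of 7 motifs between members and 1-direction peaks, TAATTA included (2.25 to 5.15 points), were larger and kept their sign, and that of TAATTG changed from -1.08 to 0.25 points. Depth is unknown, and 3 replicates limit the precision.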
